A study of Mus musculus with 10 samples.

Results

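IGHV12-3 is the mouse Igh variable segment that encodes VH12, and its rearrangements were picked from the deposited Igh clonotype tables by the V gene name alone, where the table named IGHV12-3 and no other gene. A clonotype is 1 row of such a table, a combination of V, D and J gene with 1 CDR3 amino acid sequence, and each row carries the count of its reads. IGHV12-3 had 9074 of the 195529 clonotypes, with 2806 and 2299 in WT replicates 1 and 2 and 1452 and 2517 in Igll1-/- replicates 1 and 2. Wild-type (WT) and Igll1-/- mice, all C57BL/6 and 6 to 8 weeks old, gave B-1a cells that were sorted from the peritoneal cavity. The Igll1-/- mice are labelled as an Igll1 knockout, and no other allele or treatment is given for either genotype. Rearranged Igh was amplified from genomic DNA with primers in framework region 3 and J, among them a primer made for VH12, and products of 120 to 280 bp were kept. How many mice went into a library is not stated. Sequencing of DNA gives no marker of the sorted cells, so the labelled cell type could not be checked here. Igll1-/- replicate 2 stood apart from the other 3 libraries in CDR3 length and J gene, and differences between genotypes that turned without it are given both ways.

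VH12 is best known from B-1a cells, where it pairs with VK4 to make an antibody against phosphatidylcholine (PtC), a lipid of cell membranes. The heavy chain CDR3 is the loop written by the end of V, the D gene, the J gene and the nucleotides added or lost at their joints. VH12 antibodies that bind PtC mostly carry 1 kind of CDR3, called 10/G4 in the older numbering for its 10 residues with glycine at position 4. In the IMGT definition used by these tables, which starts the CDR3 further into the V gene, that is a CDR3 of 12 residues with glycine at position 6, here called the PtC type. Igll1 encodes λ5, a part of the surrogate light chain that a new heavy chain must pair with to form the pre-BCR. Many VH12 heavy chains are known to pair poorly with it.

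Among clonotypes labelled productive, the CDR3s with the most reads show the type and its nearest variant. The first 4 are the largest productive PtC-type CDR3s of each library in turn. The last 2 are the largest productive 13-residue CDR3s of WT replicate 2 and Igll1-/- replicate 2. Residues are given from the N-terminal side, in single letters.
WT replicate 1, IGHD2-3 with IGHJ1: AGDYDGYWYFDV
WT replicate 2, IGHD4-1 with IGHJ1: AGDRSGYWYFDV
Igll1-/- replicate 1, IGHD1-1 with IGHJ1: AGDNYGYWYFDV
Igll1-/- replicate 2, IGHD2-3 with IGHJ2: AGDYDGYYYFDY
WT replicate 2, IGHD2-3 with IGHJ3: AGDPYDGYYGFAY
Igll1-/- replicate 2, IGHD2-3 with IGHJ2: AGDLYDGYYYFDY
The 4 PtC-type sequences share AGD at the start and glycine at position 6. They vary at positions 4 and 5, where those of WT replicate 1 and Igll1-/- replicate 2 both have YD. The sequences with IGHJ1 end in YWYFDV and the one with IGHJ2 in YYYFDY. In both 13-residue sequences a glycine stands at position 7, behind YD at positions 5 and 6.

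CDR3s of 12 residues made up most productive IGHV12-3 clonotypes in 3 of the 4 libraries. Their share was 76.4% in WT replicate 1 (Wilson 95% confidence interval 74.7 to 78.1), 58.7% in WT replicate 2 (56.5 to 60.8), 73.8% in Igll1-/- replicate 1 (71.2 to 76.2) and 34.7% in Igll1-/- replicate 2 (32.7 to 36.7). Productive clonotypes with other V genes had 12 residues in 12.1% to 14.3% of cases, so IGHV12-3 stood above them in 4 of 4 libraries, by 47.6 percentage points ± 18.6 (SD, n = 4; exact sign-flip test over libraries, two-sided, p = 0.125, the smallest that 4 libraries allow). The WT mean was 67.5% ± 12.6 (SD, n = 2) and the Igll1-/- mean 54.2% ± 27.6 (SD, n = 2), and the genotypes overlapped (exact permutation test, two-sided, p = 0.667, where 2 libraries against 2 cannot go below 0.333). Without Igll1-/- replicate 2 the difference of −13.3 points between Igll1-/- and WT turned to 6.22 points, so its direction rested on that library. In Igll1-/- replicate 2 a further 29.1% of clonotypes and 60.9% of reads had 13 residues, against 4.88% to 10.4% of clonotypes in the other 3 libraries.

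**Figure D1:**
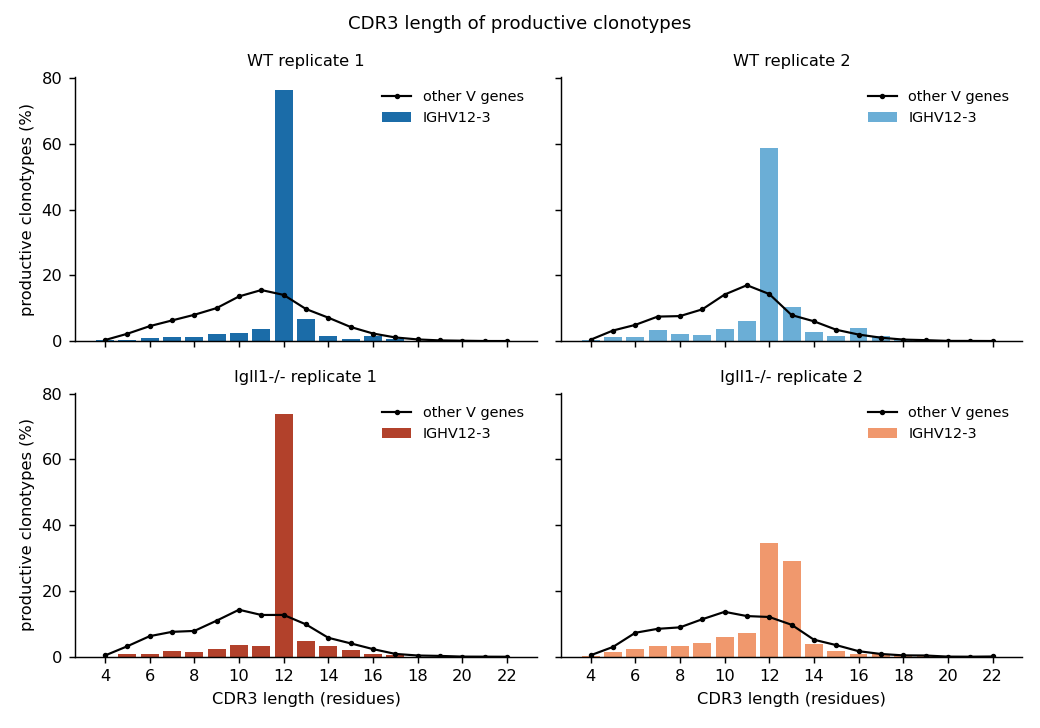
CDR3 length of productive clonotypes in each library, as percent of clonotypes (y axis) by length in residues (x axis), with bars for IGHV12-3 and a black line for all other V genes. IGHV12-3 peaks at 12 residues in every library, with a second bar of 29.1% at 13 residues in Igll1-/- replicate 2, while the other V genes spread over many lengths.

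Most 12-residue CDR3s of IGHV12-3 had the glycine of the PtC type. Glycine stood at position 6 in 94.3% and 91.6% of them in WT and in 89.1% and 80.7% in Igll1-/- libraries, against 19.3% to 24.8% of the 12-residue CDR3s of other V genes. Weighted by reads the share was 98.7% to 99.5% in 3 libraries and 93.8% in Igll1-/- replicate 2. Both Igll1-/- libraries lay below both WT libraries, by 8.12 points on average by clonotypes (exact permutation test, two-sided, p = 0.333), which is the smallest p-value this design can give.

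The PtC type as a whole, length and glycine together, took 72.1% and 53.8% of productive IGHV12-3 clonotypes in WT and 65.7% and 28.0% in Igll1-/- libraries. By reads these shares were 93.9%, 79.1%, 97.1% and 27.3% in the same order. Other V genes had the type in 2.34% to 3.55% of their productive clonotypes, and IGHV12-3 was higher in 4 of 4 libraries (exact sign-flip test, two-sided, p = 0.125). The genotype means of 62.9% ± 12.96 (SD, n = 2) in WT and 46.8% ± 26.7 (SD, n = 2) in Igll1-/- libraries did not separate (exact permutation test, two-sided, p = 0.667), and without Igll1-/- replicate 2 the Igll1-/- value was the higher by 2.77 points. Folding each clonotype into one with at least 10 times its reads and at most 1 different residue lowered the type to 53.0%, 30.6%, 53.0% and 19.4%. Igll1-/- replicate 2 had the lowest share under each way of counting that was tried.

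**Figure D2:**
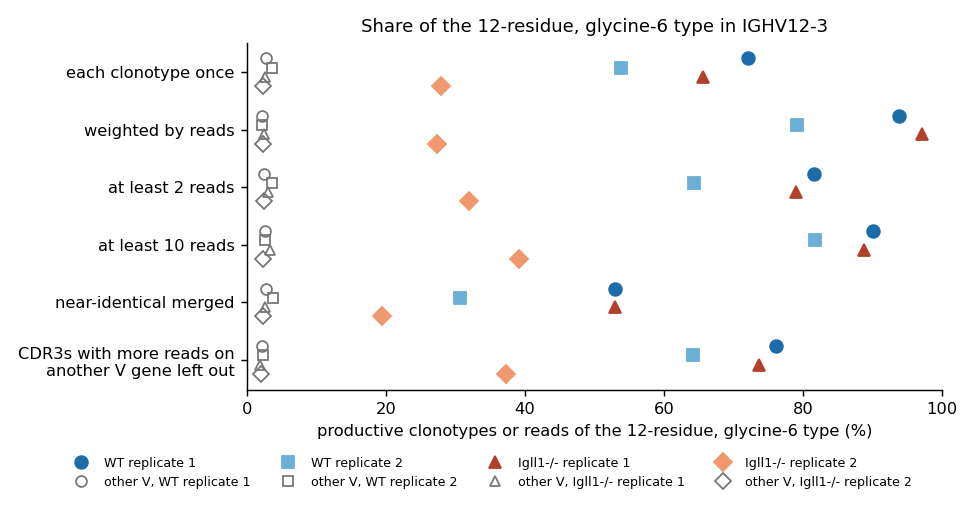
Share of the PtC type (12 residues, glycine at position 6) in percent (x axis) under 6 ways of counting (rows), with filled symbols for IGHV12-3 and open symbols for the other V genes, 1 symbol per library. Igll1-/- replicate 2 is the lowest filled symbol in every row, from 19.4% to 39.2%, and all open symbols lie under 4%.

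Within the 12 residues, variety was highest at positions 4 and 5. It was measured as the effective number of residues, the number of equally common residues that would give the same Shannon entropy. Positions 4 and 5 had 5.35 to 8.38 and 6.87 to 8.96 effective residues in the 4 libraries. Position 6 had 1.41 and 1.60 in WT and 1.82 and 2.59 in Igll1-/- libraries, where other V genes had 9.29 to 11.4. Position 3 had 1.47 to 2.40, where other V genes had 12.4 to 13.6.

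The first 3 residues were almost fixed. Aspartate was found at position 3 in 92.5% and 88.2% of 12-residue clonotypes in WT and in 85.3% and 83.1% in Igll1-/- libraries. PtC-type CDR3s began with AGD in 75.4% to 85.9% of clonotypes and in 92.8% to 98.5% of reads. Position 2 was arginine instead of glycine in 9.81% of the 12-residue clonotypes of Igll1-/- replicate 2, and in under 4% in WT replicate 2 and Igll1-/- replicate 1 (3.86% and 3.99%).

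**Figure D3:**
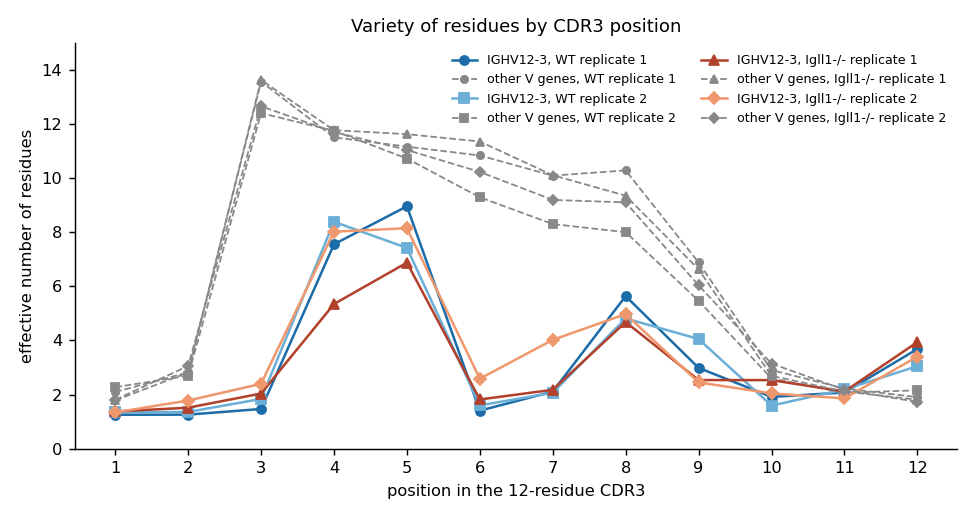
Effective number of residues (y axis) at each position of the 12-residue CDR3 (x axis), counted over productive clonotypes, with coloured lines for IGHV12-3 and grey dashed lines for the other V genes, 1 line per library. In IGHV12-3 positions 3 and 6 are low and positions 4 and 5 high, while the other V genes stay between 8.00 and 13.6 from position 3 to position 8.

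Arginine led position 4, with 41.9% and 37.6% of 12-residue clonotypes in WT and 36.9% and 27.4% in Igll1-/- libraries. Which other residue was common there differed from library to library. Asparagine took 36.8% in Igll1-/- replicate 1 and 3.41% to 7.71% elsewhere, and methionine took 25.7% in Igll1-/- replicate 2. By reads asparagine led in Igll1-/- replicate 1, with 73.5% against 22.3% for arginine, and arginine led in the other libraries. At position 5, aspartate was most common in WT libraries (30.9% and 37.9%), tyrosine in Igll1-/- replicate 1 (36.0%) and methionine in Igll1-/- replicate 2 (27.5%). Asparagine then tyrosine is the pair of the largest CDR3 of Igll1-/- replicate 1, shown above. Methionine at both positions is the pair of AGDMMGYWYFDV, a large clonotype of Igll1-/- replicate 2 labelled unproductive and described below. In that library 93 productive clonotypes had this CDR3 or lay 1 residue away from it.

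Tyrosine followed the glycine, at position 7, in 83.7%, 85.2%, 83.8% and 63.5% of 12-residue clonotypes. Asparagine took 15.3% of position 7 in Igll1-/- replicate 2, and 91.3% of the PtC-type clonotypes with IGHD2-1 in that library had it. A PtC-type CDR3 in AGD, any pair of residues, glycine and then YWYFDV or YYYFDY, the forms that IGHJ1 and IGHJ2 give here, accounted for 12.9% to 18.4% of PtC-type clonotypes. The same 2 forms held 72.8% and 63.5% of the PtC-type reads in WT and 80.8% and 39.7% in Igll1-/- libraries, more than their share of clonotypes in each library.

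Among CDR3s of 13 residues, glycine was at position 7, 1 place further on, in 66.5% and 71.9% of clonotypes in WT and in 73.5% in Igll1-/- replicate 2. Igll1-/- replicate 1, which had 58 such clonotypes, held it in 27.6% and had glycine at position 6 in 41.4%. By reads, 93.3% of the 13-residue CDR3s of Igll1-/- replicate 2 had the glycine at position 7. Leucine at position 4, the residue of AGDLYDGYYYFDY, stood in 68.8% of that library's 13-residue clonotypes.

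J1 was over-represented among IGHV12-3 clonotypes. IGHJ1 was joined to 37.2% (95% interval 35.3 to 39.1) and 40.2% (38.1 to 42.4) of productive IGHV12-3 clonotypes in WT and to 44.7% (41.9 to 47.6) and 21.6% (19.9 to 23.4) in Igll1-/- libraries. Other V genes used IGHJ1 in 12.1%, 18.2%, 11.3% and 10.4% of productive clonotypes. The excess was 22.9 points ± 9.2 (SD, n = 4), with IGHV12-3 higher in 4 of 4 libraries (exact sign-flip test, two-sided, p = 0.125). By reads IGHJ1 had 54.8%, 59.8%, 75.6% and 11.7%, and the excess over other V genes was then 0.85 to 64.3 points.

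Igll1-/- replicate 2 was the lowest in IGHJ1 and without it the Igll1-/- share was above the WT mean by 6.04 points, where the difference between Igll1-/- and WT over all libraries was −5.53 points (exact permutation test, two-sided, p = 1). Counting clonotypes of 10 reads or more gave 0.98 points (exact permutation test, two-sided, p = 1).

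IGHJ2 was the commonest J gene of IGHV12-3 in WT replicate 1 and Igll1-/- replicate 2, with 48.4% and 59.0% of productive clonotypes, and had 35.5% and 41.5% in WT replicate 2 and Igll1-/- replicate 1. Its mean of 46.1% was close to the 43.7% of other V genes, higher in 2 of 4 libraries (exact sign-flip test, two-sided, p = 0.75). IGHJ4 was used less by IGHV12-3 than by other V genes in each library, 4.91% to 8.51% against 18.4% to 20.2%, a mean difference of −12.8 points ± 0.95 (SD, n = 4; exact sign-flip test, two-sided, p = 0.125). IGHJ3 had 9.54%, 18.5%, 8.16% and 10.9%, below the other V genes in 3 of 4 libraries (p = 0.25, exact sign-flip test). These 4 J genes were tested as a family of 4, and after Benjamini-Hochberg adjustment no p-value can fall below 0.125.

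The J genes differed between productive and unproductive IGHV12-3 clonotypes. IGHJ1 had 27.3% and 21.7% of the unproductive clonotypes in WT and 33.5% and 10.2% in Igll1-/- libraries, lower than among productive ones in 4 of 4 libraries by 12.8 points ± 3.9 (SD, n = 4; exact sign-flip test, two-sided, p = 0.125). IGHJ2 went the other way in 4 of 4, with 47.5% to 77.8% of unproductive clonotypes. The length of the J gene bears on the CDR3 length, and in other V genes too 12 residues were commoner with IGHJ1 (17.3% to 27.2%) than with IGHJ2 (9.76% to 11.6%). For IGHV12-3 the PtC type made up 79.6%, 63.4%, 76.9% and 57.8% of the clonotypes with IGHJ1, and 75.8%, 50.5%, 69.2% and 23.9% of those with IGHJ2. With IGHJ4 it made up 5.0% to 32.5%.

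**Figure D4:**
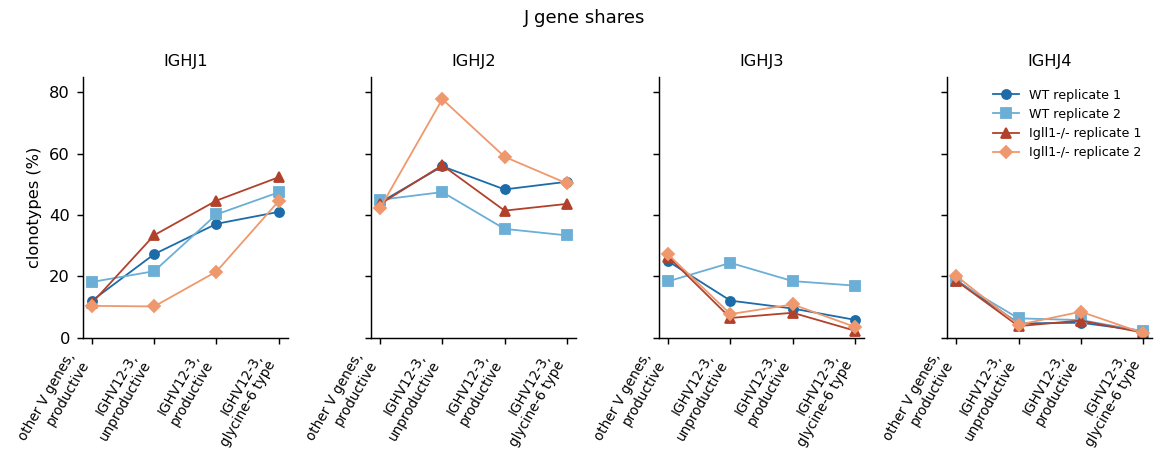
Share of each J gene in percent of clonotypes (y axis) among productive clonotypes of other V genes and among unproductive, productive and PtC-type IGHV12-3 clonotypes (x axis), 1 line per library. IGHJ1 rises from left to right in 3 libraries, and in Igll1-/- replicate 2 it rises after first values of 10.4% and 10.2%, while IGHJ4 is lower in IGHV12-3 than in the other V genes.

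The same residues at positions 4 and 5 were found with both J genes. PtC-type CDR3s held 145 and 112 different pairs of residues at these positions in WT and 79 and 92 in Igll1-/- libraries. Of these, 75, 43, 28 and 33 were found both with IGHJ1 and with IGHJ2. Among PtC-type clonotypes of at least 10 reads, 55, 39, 20 and 14 pairs were seen with IGHJ1 and 37, 19, 10 and 10 with IGHJ2. Of these pairs, 25, 11, 6 and 3 were seen with both.

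IGHV12-3 joined D genes of the IGHD2 family more often than other V genes did. IGHD2 genes, a family of closely related sequences known as DSP2, had 65.7%, 58.0%, 62.7% and 65.7% of the productive clonotypes with a D gene in WT replicates 1 and 2 and Igll1-/- replicates 1 and 2. They had 39.6% to 43.7% with other V genes, 20.7 points ± 2.4 less (SD, n = 4; higher for IGHV12-3 in 4 of 4, exact sign-flip test, two-sided, p = 0.125). The mean difference between genotypes was 2.31 points (exact permutation test, two-sided, p = 1), −1.53 points without WT replicate 2 and −5.58 points by reads, so it had no steady direction. Among unproductive IGHV12-3 clonotypes IGHD2 genes had 67.9% and 71.9% in WT and 66.5% and 85.3% in Igll1-/- libraries. Their share among productive ones was lower in each library, by a mean difference of −9.9 points ± 8.3 (SD, n = 4; exact sign-flip test, two-sided, p = 0.125).

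IGHD2-3 was the leading member, with 40.6% and 39.9% of clonotypes in WT and 24.5% and 43.6% in Igll1-/- libraries, against 9.31% to 10.5% with other V genes. IGHD2-2 took 9.88% and 6.88% in WT and 18.0% and 3.78% in Igll1-/- libraries. IGHD1-1, the most used D gene of the other V genes here at 30.9% to 33.9%, had 11.5%, 18.9%, 24.7% and 17.6% with IGHV12-3. By reads IGHD1-1 held 67.4% in Igll1-/- replicate 1 and 6.74% to 16.4% elsewhere, and the single CDR3 AGDNYGYWYFDV held 60.9% of that library's productive IGHV12-3 reads.

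The D gene went with the residues beside the glycine. In PtC-type clonotypes with IGHD2-3, position 5 was aspartate in 61.4% and 69.9% of cases in WT and in 30.5% and 46.7% in Igll1-/- libraries. Glycine was the more common there in Igll1-/- replicate 1, with 54.5%. With IGHD2-2 it was tyrosine in 53.4%, 57.0%, 76.6% and 78.0%. With IGHD3-2, which had 4 to 106 such clonotypes in a library, it was serine in 75.0% to 90.0%. Among the D genes plotted, the PtC type was most frequent with IGHD2-2 and IGHD2-3 in WT replicate 2 (70.9% and 71.8%). The same held in Igll1-/- replicate 1 (88.7% and 80.9%). In WT replicate 1 IGHD3-2 was highest (85.5%), ahead of IGHD2-3 (84.2%) and IGHD2-2 (80.6%). In Igll1-/- replicate 2 IGHD2-2 (52.6%) and IGHD2-1 (52.3%) were highest, and only 27.1% of the IGHD2-3 clonotypes were of the type.

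D names were less certain for IGHV12-3 than for other V genes. The caller listed alleles of more than 1 D gene for 5.42% to 13.1% of productive IGHV12-3 clonotypes, against 1.39% to 1.92% with other V genes, and the table keeps the first. With those clonotypes left out, IGHD2 genes had 67.6%, 59.0%, 62.0% and 66.8%.

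**Figure D5:**
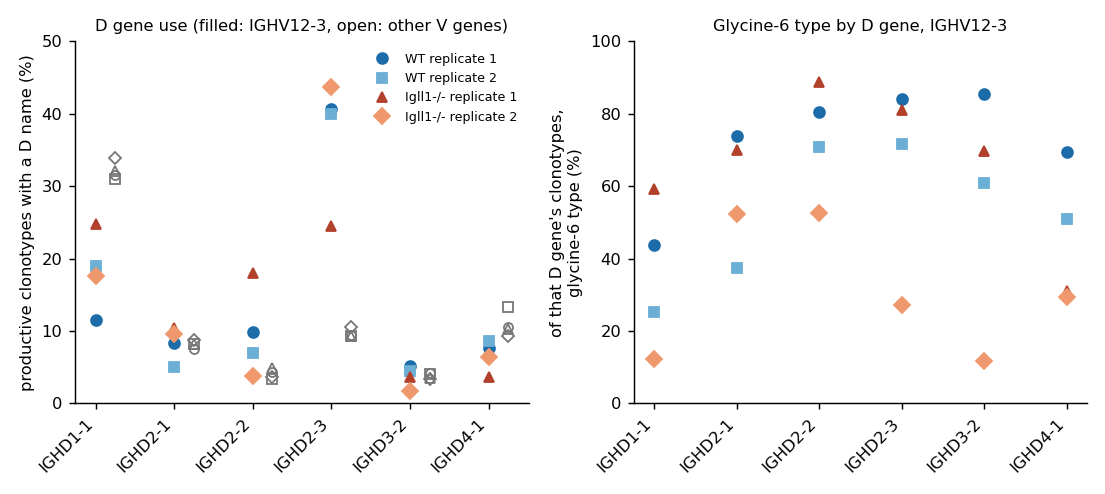
Left, D gene use in percent of the productive clonotypes for which the table names a D gene, those with alleles of several D genes included (y axis), filled symbols for IGHV12-3 and open symbols for other V genes, 1 symbol per library. Right, percent of each D gene's IGHV12-3 clonotypes that are of the PtC type. IGHD2-3 stands between 24.5% and 43.6% for IGHV12-3 and near 10% for the other V genes, and Igll1-/- replicate 2 is the lowest symbol on the right for 5 of the 6 D genes.

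Fewer of the IGHV12-3 clonotypes than of the others were labelled productive. The share was 87.1% and 90.4% in WT and 81.9% and 84.1% in Igll1-/- libraries, against 92.4% to 94.2% for other V genes, lower in 4 of 4 libraries, with a difference of −7.53 points ± 4.47 (SD, n = 4; exact sign-flip test, two-sided, p = 0.125). The difference between the Igll1-/- and WT means was −5.75 points, with both Igll1-/- libraries below both WT libraries (exact permutation test, two-sided, p = 0.333). With near-identical clonotypes merged they overlapped, at 83.4% and 89.0% in WT and 78.2% and 84.2% in Igll1-/- libraries (exact permutation test, two-sided, p = 0.667). The unproductive clonotypes numbered 363, 221, 263 and 401, and 291, 201, 235 and 369 of them had a stop codon in the CDR3. All IGHV12-3 rows kept both anchor residues of the CDR3, so rearrangements out of frame do not enter these counts.

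By reads the order changed, with 97.6%, 97.4% and 96.5% productive in 3 libraries and 70.8% in Igll1-/- replicate 2, and the first 3 then lay above the other V genes (93.1% to 95.2%). In Igll1-/- replicate 2, 1 clonotype labelled unproductive, AGDMMGYWYFDV with IGHD2-3 and IGHJ1, had 7917 reads, no stop codon in its CDR3 and the form of the PtC type. Around it lay 93 productive clonotypes of that CDR3 or 1 residue away from it, 12.7% of the library's productive 12-residue clonotypes, against 3 to 8 such clonotypes in the other libraries. Counted with all clonotypes that have no stop codon in the CDR3, an alternative chosen after seeing the data, Igll1-/- replicate 2 had IGHJ1 in 33.3% of reads rather than 11.7% and the PtC type in 45.1% rather than 27.3%.

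Productive IGHV12-3 reads were gathered in fewer CDR3s in the Igll1-/- than in the WT libraries. The largest took 20.5% and 5.56% of these reads in WT and 60.9% and 43.6% in Igll1-/- libraries, and the 10 largest together 47.6%, 34.6%, 82.8% and 63.7%. In bulk DNA, more cells of a clone and stronger amplification of its product cannot be told apart. The effective number of CDR3s, from the Shannon entropy of their reads, was 95.8 and 175 in WT and 8.93 and 41.3 in Igll1-/- libraries. Both Igll1-/- libraries were below both WT libraries, with means of 25.1 ± 22.9 (SD, n = 2) in Igll1-/- and 135 ± 56.1 (SD, n = 2) in WT libraries. The exact permutation test gave a two-sided p = 0.333. The order was the same with all libraries thinned to 15373 reads (92.4, 175, 8.82 and 39.8) and with near-identical clonotypes merged (43.4, 76.7, 3.34 and 9.92).

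The leaders of the libraries differed. AGDYDGYWYFDV had 7151 and 504 reads in WT and 38 and 49 in Igll1-/- libraries. AGDNYGYWYFDV had 307 and 236 in WT, 22382 in Igll1-/- replicate 1 and 88 in Igll1-/- replicate 2. AGDLYDGYYYFDY had 90, 21, 26 and 10626 in the same order. Each of these CDR3s was thus found in all 4 libraries and led 1 of them, and AGDYDGYWYFDV was also among the 5 largest of WT replicate 2, with 3.28% of its reads. The paper states that samples were pooled for sequencing. Whether low counts outside the leading library were reads carried over from it was not tested.

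CDR3s with the same residues at positions 4 and 5 recurred with the other J gene. AGDRSGYWYFDV (IGHJ1), the leader of WT replicate 2 and among the 5 largest of WT replicate 1, had 1092 and 855 reads in WT and 12 and 11 in Igll1-/- libraries, and AGDRSGYYYFDY (IGHJ2) had 1161 and 275 in WT and 1 and 11. AGDYDGYYYFDY, the IGHJ2 form of the WT leader, had 68 and 19 reads in WT and 121 and 1688 in Igll1-/- libraries. AGDRDGYWYFDV had 381 and 705 reads in WT and 5 and 6 in Igll1-/- libraries. AGDRGGYYYFDY had 91 and 9 in WT and 4417 and 7 in Igll1-/- libraries, while AGDRYGNYYFDY (IGHD2-1) had 276, 49, 4 and 1542. AGDRGGYYYFDY and AGDRYGNYYFDY were thus high in 1 Igll1-/- library and low in the other.

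Of 6361 distinct productive CDR3s of IGHV12-3, 69 (1.08%) were found in all 4 libraries and 5620 (88.4%) in 1 library. The 69 held 66.7% and 47.0% of productive IGHV12-3 reads in WT and 81.8% and 58.8% in Igll1-/- libraries, and 55 of them (79.7%) were of the PtC type, against 47.9% of those in 1 library. In 2 and in 3 libraries the share of the type was 67.1% and 74.2%. The order depended on the read minimum, with 55.3%, 82.8%, 76.9% and 80.0% in 1, 2, 3 and 4 libraries at 2 reads or more, and 70.5%, 87.8%, 100% and 71.4% at 10 or more. Carry-over of reads between pooled libraries was not tested for in these counts of shared CDR3s.

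CDR3s in both WT libraries and in no Igll1-/- library numbered 275, of which 217 (78.9%) were of the PtC type. The largest of these, AGDSDGYWYFDY, had 8 and 250 reads, and AGDWDGYWYFDV had 28 and 112. In both Igll1-/- libraries and in no WT library there were 34, of which 10 (29.4%) were of the type. Among clonotypes of 2 reads or more, the type made up 103 of 113 (91.2%) WT-only and 5 of 6 (83.3%) Igll1-/- only CDR3s. Clonotypes of 1 read counted as absent there. The largest Igll1-/- only CDR3 was AGDNYGHWYFDV with 107 reads and 1 read, 1 residue from the leader of Igll1-/- replicate 1, and 4 of the 5 largest had a single read in 1 of the libraries. Among clonotypes of 10 reads or more, 31 CDR3s were listed in both WT and in neither Igll1-/- library, and 0 the other way round. Such CDR3s could be present below that minimum. AGDRDGYWYFDV, for example, had 381 and 705 reads in WT and 5 and 6 in Igll1-/- libraries. Counts of this kind were not made for other V genes. Whether the imbalance between genotypes is particular to this V gene was not tested.

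A WT library shared 19.1% and 22.6% of its CDR3s with the other WT library, and 8.46% to 10.4% with an Igll1-/- library. An Igll1-/- library shared 12.3% and 6.77% with the other Igll1-/- library, and 8.10% to 18.1% with a WT library. Each Igll1-/- library thus shared a smaller part of its CDR3s with the other Igll1-/- library than with either WT library. The mean over ordered pairs was 15.2% within a genotype and 11.1% between genotypes. These pairs share libraries and depths, and no test was made of them. The share found in another library also depends on how many CDR3s that library holds, 2289 and 1939 in WT and 1116 and 2024 in Igll1-/- libraries.

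To compare genotypes over the whole table, clonotypes were counted for each V and J pair and for each V gene and CDR3 length, and tested with edgeR's quasi-likelihood test and Benjamini-Hochberg adjustment. Of 272 V-J pairs tested, 1 (0.368%) was called at an adjusted p-value under 0.05, IGHV11-2 with IGHJ1, and 21 had an unadjusted p under 0.05. None of the 4 IGHV12-3 pairs was called. Their clonotypes, productive or not, numbered 1007 and 884 in WT and 620 and 498 in Igll1-/- libraries for IGHJ1, and 277 and 438 against 114 and 261 for IGHJ3. The log2 fold changes (Igll1-/- over WT, in share of all clonotypes) were −0.38 (SE 0.41, edgeR adjusted p = 0.781) for IGHJ1, 0.15 (SE 0.32, edgeR adjusted p = 0.919) for IGHJ2, −0.78 (SE 0.42, edgeR adjusted p = 0.673) for IGHJ3 and 0.16 (SE 0.45, edgeR adjusted p = 0.928) for IGHJ4. Without Igll1-/- replicate 2 those of IGHJ1, IGHJ2 and IGHJ4 turned to 0.088, −0.087 and −0.12. With at least 10 reads per clonotype, where 56 pairs were tested and 14 called, IGHV12-3 with IGHJ3 passed at −1.92 (edgeR adjusted p = 0.021).

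Of 608 classes of V gene and CDR3 length, 8 (1.32%) were called, and 62 had an unadjusted p under 0.05. Of the 14 IGHV12-3 classes, 0 were called, with a median log2 fold change of 0.28 against −0.08 over all classes. At 12 residues there were 1867 and 1219 productive clonotypes in WT and 877 and 734 in Igll1-/- libraries, a log2 fold change of −0.58 (SE 0.47, edgeR adjusted p = 0.799). It was −0.13 without Igll1-/- replicate 2 and −1.23 without Igll1-/- replicate 1. At 13 residues 161 and 217 stood against 58 and 616, a log2 fold change of 0.76 (SE 0.40, edgeR adjusted p = 0.538), which was −1.04 without Igll1-/- replicate 2. The class nearest to the threshold had 16 residues, with 39 and 83 clonotypes in WT and 9 and 17 in Igll1-/- libraries and a log2 fold change of −2.06 (SE 0.70, edgeR adjusted p = 0.16). In WT, 66.7% and 83.1% of those 16-residue clonotypes used IGHJ1 and 84.6% and 96.4% an IGHD1 gene. Only 10 of the 39 and 14 of the 83 began with AGD, and 34 and 58 had 1 read. The largest clonotype held 88 of 212 reads in WT replicate 1 and 336 of 525 in WT replicate 2.

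Among the 45 V genes with at least 100 productive clonotypes in every library, IGHV12-3 ranked first for the 12-residue CDR3, with a mean over libraries of 60.9%. The next were IGHV11-2, the other V gene of PtC-binding B-1a cells (29.7%), IGHV8-8 (21.9%) and IGHV7-3 (21.1%). For the PtC type the mean of 54.9% was followed by 8.84% for IGHV10-1, 6.56% for IGHV3-6 and 6.13% for IGHV8-8, with 5.39% for IGHV11-2. IGHV11-2 had 76.5% and 73.1% IGHJ1 in WT and 34.7% and 33.1% in Igll1-/- libraries. The gene most like IGHV12-3 in its joint use of CDR3 lengths and J genes was IGHV11-2, where on average 52.7% of the clonotypes lay in the same classes, followed by IGHV7-3 (47.9%) and IGHV3-6 (44.9%).

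Part of the type counted under other V genes had the very CDR3 of an IGHV12-3 clonotype. Of the 1145, 1217, 581 and 976 PtC-type clonotypes with other V genes, 26.3% and 42.7% in WT and 30.8% and 41.0% in Igll1-/- libraries carried a CDR3 that the same library also listed with IGHV12-3, at a median of 1 to 2 reads. Of the other V genes' clonotypes outside the type, 1.68% and 9.90% in WT and 4.76% and 20.9% in Igll1-/- libraries did. The reverse was seen for IGHV12-3 clonotypes outside the type. Their CDR3 had more reads with other V genes than with IGHV12-3 in 18.9% and 35.9% of cases in WT and in 31.9% and 36.3% in Igll1-/- libraries, against 0.17% to 2.53% for the PtC type. The start of the CDR3 divided them further. Of the IGHV12-3 clonotypes that did not begin with AGD, 26.7%, 50.4%, 32.6% and 62.1% had more reads elsewhere, and of those that did, 0.07% to 0.33%.

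With all such clonotypes left out, a setting added after seeing the data, the PtC type took 76.1% and 64.2% of IGHV12-3 clonotypes in WT and 73.6% and 37.3% in Igll1-/- libraries. IGHJ1 then had 38.3%, 43.3%, 47.3% and 24.7%. Whether the small clonotypes are separate rearrangements was not tested. Of the productive IGHV12-3 clonotypes, 46.2% to 60.5% lay within 1 residue of a productive one with the same J gene, the same length and at least 10 times the reads, and of the unproductive ones 29.9% to 43.8%.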

How the data were processed

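The authors amplified rearranged Igh from genomic DNA, sequenced it on an Illumina HiSeq, ran IMGT/High-V-QUEST on the reads and deposited 1 clonotype table per library. The deposited read count of a clonotype is not normalized and has no molecular identifiers. The deposited percent identity to the germline V gene was 100 for 71.4% to 76.5% of productive IGHV12-3 clonotypes. Libraries held 180593 to 285517 reads in 32386 to 58205 clonotypes, and 64.3% to 68.6% of IGHV12-3 clonotypes had 1 read. IGHV12-3 had 15373 to 36740 productive reads per library, and 3 clonotypes equal 0.123% to 0.252% of its productive clonotypes. Software versions and the genome build of the annotation are not given in the sources used here. The Igk tables were not used here.

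Each clonotype was counted once, with reads as an alternative, and functionality was taken as listed. Shares of IGHV12-3 were compared between genotypes by an exact permutation test (2 against 2) and with other V genes by an exact sign-flip test over the 4 libraries. Intervals are Wilson 95% intervals of single libraries and cover counting error only, since clonotypes are not independent. V-J pairs and V-length classes that reached 10 clonotypes in 2 or more libraries were tested with edgeR 4.0.16 (quasi-likelihood), with DESeq2 1.42.0 as an alternative. For edgeR, library size was the number of all clonotypes for V-J pairs and of productive clonotypes for V-length classes. The calculations were tested on simulated data. The SE of a log2 fold change is its size over the square root of F. The study's legends name independent experiments, so the libraries were counted as 4, but the labels do not say that replicates came from separate mice, and p-values then measure only the spread between these libraries, which may be technical.

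The gene, the lists and the tests were chosen with earlier results of these data known. Named were all J genes, D genes with at least 5% in any library (at most 8), the 5 CDR3s with most reads per library, the 10 highest by mean share among those in all 4, the 5 highest in both libraries of 1 genotype only, and the 3 V genes most alike or highest in each share, with IGHV11-2. Of these CDR3s the text gives those that carry a comparison. AGDMMGYWYFDV, the 16-residue class and the comparison with CDR3s on other V genes were chosen after values were seen.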

Additional observations from a re-analysis of the deposited data

Results flagged for a closer look

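Reads of unproductive clonotypes without a stop codon in the CDR3 stood out in 1 library. Such IGHV12-3 clonotypes had 8033 reads in Igll1-/- replicate 2, against 154 and 33 in the WT libraries and 60 in Igll1-/- replicate 1. They made up 23.3% of all IGHV12-3 reads of that library and 0.16% to 0.43% in the others. The clonotype AGDMMGYWYFDV held 7917 of them, and the same CDR3 was listed as productive in the other libraries, with 29, 13 and 10 reads. Functionality belongs to the representative read of a clonotype. That read was 284 bases long, where productive IGHV12-3 clonotypes of the library had a median of 196 and 5 reached 284, and its V part was 100% identical to the germline gene. Why it was labelled unproductive was not tested.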

How the results depend on the processing

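The excess of IGHV12-3 over other V genes in 12-residue CDR3s, the PtC type, IGHJ1 and IGHD2 genes, and its deficit in productive clonotypes, kept the direction of their mean under each alternative run, although by reads IGHV12-3 was above other V genes in 3 of 4 libraries for the productive share and for IGHD2 genes. Among the differences between genotypes, those in the productive share and the effective number of CDR3s kept their direction too. Those in the 12-residue share, the PtC type, IGHJ1 and the IGHD2 family turned under at least 1 alternative. For the 12-residue share (−13.3 points), leaving out each library gave −32.9 to 6.22, for the PtC type (−16.1) −34.9 to 2.77, for IGHJ1 (−5.53) −17.1 to 6.04, for the IGHD2 family (2.31) −1.53 to 6.14, for the productive share −7.41 to −4.09 and for the effective number of CDR3s −150 to −70.7. IGHJ1 turned to 0.98 with at least 10 reads and 2.97 with near-identical clonotypes merged, and the IGHD2 family to −5.58 by reads and −3.79 by reads without a stop codon. The count of called V-J pairs (1) was 6 without the filter and 14 for clonotypes of 10 reads or more. It ranged from 0 (without either WT library) to 8 (without Igll1-/- replicate 1). The 8 called V-length classes became 10 of 31 tested for clonotypes of 10 reads or more, 2 with TMM, DESeq2, no filter, reads or the replicate block, and ranged from 1 (without WT replicate 2) to 9 (without Igll1-/- replicate 1). The log2 fold change of IGHV12-3 with IGHJ1 became 0.085 for clonotypes of 10 reads or more and 0.55 by reads, and that of the 12-residue class 0.11 by reads. Leaving out each library gave −1.07 to 0.088 for IGHJ1, −0.11 to 0.46 for IGHJ2 (−0.087 without Igll1-/- replicate 2), −1.13 to −0.33 (without WT replicate 2) for IGHJ3, −0.12 to 0.39 for IGHJ4, −1.23 to −0.13 for 12 residues and −1.04 to 1.52 for 13 residues. These settings' causes were not tested. With 1 library left in a genotype, that library was assumed to vary like the other pair. The labels give both genotypes replicates 1 and 2, and the correlation of same-number deviations was 0.17, so the numbers were not taken to pair them. With the replicate block, the difference in the PtC type was −16.1 points (exact sign-flip test, p = 0.5, the smallest for 2 pairs) and 1 V-J pair was called. No clonotype named IGHV12-3 among several V genes, so adding those gave no value.

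Read depth limits the small classes. Shares of 0.252% of productive clonotypes rest on 3 or fewer clonotypes in Igll1-/- replicate 1, and 202, 126, 125 and 176 productive clonotypes had at least 10 reads. With 2 libraries per genotype, the exact test could not pass the threshold for any share.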
